A study of Schmidtea mediterranea with 60 samples.

Results

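Amputation of a planarian is followed within hours by a wave of new gene expression at the wound, and these data were used to describe how much of that wave took place by 6 hours post amputation (hpa) in tail pieces labelled bmp4 RNAi. The 10 libraries of the comparison, 5 at 6 hpa and 5 at 0 hpa, were chosen by their labels out of the 60 libraries of the series. The planarian was Schmidtea mediterranea, a freshwater flatworm that regrows any missing body part, of the clonal asexual strain CIW4. Both groups came from animals fed liver mixed with double-stranded RNA of bmp4 on 4 occasions and amputated 7 days after the last meal, a treatment (RNA interference, RNAi) meant to lower the matching transcript. They differed in whether the anterior-facing wound of the post-pharyngeal (tail) piece was taken 6 hours after the cut or at once. Libraries of the same RNAi condition at 3 hpa, and libraries at 6 and 0 hpa from animals of the same strain fed control RNA (unc-22, taken from the nematode C. elegans), were used only to place these changes. The time course asked which early steps of regeneration depend on bmp4. Each library pooled 5 wounds, so a replicate was a pool of tissue and not 1 animal, and nothing in the labels says that the pools came from separate RNAi experiments. The p-values therefore measure the spread between pools only.

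The product of bmp4 is a bone morphogenetic protein, a secreted signal that sets the dorsal-ventral axis in planarians and many other animals. After wound closure, planarian epidermis, muscle and stem cells (neoblasts) switch on wound-induced genes at essentially every injury, and a later and longer phase of expression follows only where tissue is missing. Wound-induced genes of planarians include transcription factors, secreted regulators of signalling pathways, matrix proteins and stress proteins. The gene equinox, which encodes a predicted secreted protein with thrombospondin-type and EGF domains, is active in the epidermis that covers the wound.

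The libraries held 15.97 to 21.08 M counts at 6 hpa and 17.29 to 22.90 M at 0 hpa, and of 28742 transcripts 18510 passed the filter on low counts and were tested. The libraries of the bmp4 RNAi label at 3 hpa were less deep, at 5.921 to 17.21 M. No pair of libraries of a group were as close as repeat sequencing of 1 library would be (chi-square of at least 5.445 per degree of freedom). This value cannot tell separate pools from separate libraries made of the same RNA. Within the leading pattern of variation inside groups, which held 12.55% of the within-group variance, replicate 3 at 6 hpa stood highest of the 5, with a mean log2 level of 3.30 over the 200 transcripts that carried it, against 1.688 to 2.439 in the other 4 and 1.746 to 2.851 at 0 hpa. Of those 200 transcripts 2 were called higher and 1 lower in the comparison, beside 7.75% and 5.40% of all transcripts tested. They were chosen for their spread within groups, so these low counts do not show that the pattern left the comparison untouched. With that pattern as a covariate 1688 transcripts were called lower, against 999 without it. The share of counts on 8 mitochondrial transcripts was 0.1948% to 0.5648% at 6 hpa, where replicate 5 was the highest, and 0.2376% to 0.277% at 0 hpa. No ID of a planarian cell type marker was at hand, so lists of best protein matches stood for ciliated, nerve and muscle cells. Their transcripts were present at both times. The summed level over 23 tested cilium genes ran from 574.3 to 612.7 CPM (each count relative to the scaled size of its library) at 6 hpa and from 582.3 to 724.6 CPM at 0 hpa. That over 20 neuronal genes ran from 589.3 to 644.1 CPM at 6 hpa and from 554.8 to 610.8 CPM at 0 hpa, and that over 6 muscle genes from 446.7 to 612.3 CPM at 6 hpa and from 375 to 459.4 CPM at 0 hpa. Most of the muscle sum came from 1 transcript, that matching ATP2A2. Only 2 of the 6 muscle genes had a log2 fold change above 0, with a median of -0.14. No member of these 3 lists that was tested was at 0 throughout, which held for all but 1 of the 18510 transcripts tested. Whether shifts in the share of these tissues took part in any result was not tested, and fewer cells of a type cannot be told apart from less RNA per cell in such bulk samples.

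The targeted transcript, bmp4 itself (dd_Smed_v6_17402_0_1), was lower at 6 hpa than at 0 hpa, but it did not follow the label at 0 hpa, nor in most libraries at 3 hpa. At 6 hpa it measured 1.84, 0.863, 0.565, 1.79 and 0.487 CPM in replicates 1 to 5 of the libraries labelled bmp4 RNAi. Replicates 1 to 5 of the same label at 0 hpa had 8.80, 6.30, 6.53, 5.64 and 7.11 CPM. Every library at 6 hpa lay below every library at 0 hpa, and the log2 fold change was -2.65 (SE 0.585, edgeR adjusted p = 0.000924). The control libraries stood between these groups, at 2.25 to 3.47 CPM at 6 hpa and 2.66 to 3.25 CPM at 0 hpa, and showed no called change (log2 fold change -0.06, edgeR adjusted p = 0.958). At 6 hpa all 5 libraries labelled bmp4 RNAi were thus below the control libraries, and at 0 hpa all 5 were above them (exact two-sided permutation test of 5 against 5 libraries, p = 0.00794 each, the smallest the test can give, and 0.0113 after adjustment over 10 tests). The fit across all transcripts called neither of these 2 differences, with log2 fold changes of -1.35 at 6 hpa and 1.25 at 0 hpa (edgeR adjusted p = 0.152 and 0.123). Its test of the difference between the changes in the 2 conditions gave -2.60 (unadjusted 95% interval -4.25 to -0.94, edgeR adjusted p = 0.213). That difference passed the threshold when only the 20 libraries compared were fitted (-2.60, edgeR adjusted p = 0.000919). At 3 hpa the transcript measured 5.035, 6.798, 1.405, 10.68 and 10.35 CPM in replicates 1 to 5 of the bmp4 RNAi label and 1.796 to 3.474 CPM in control libraries. Replicate 3 was thus the lowest of all 10 libraries at 3 hpa, and the other 4 of its label lay above every control library (no test was made at this time). Because the target went against the label in all 5 libraries at 0 hpa and in 4 of 5 at 3 hpa, the treated groups are referred to by their label (libraries labelled bmp4 RNAi), on which all directions given here depend. Why the target did so was not tested. The transcript of equinox, described next, was lower than in control libraries at both 6 and 0 hpa.

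**Figure D1:**
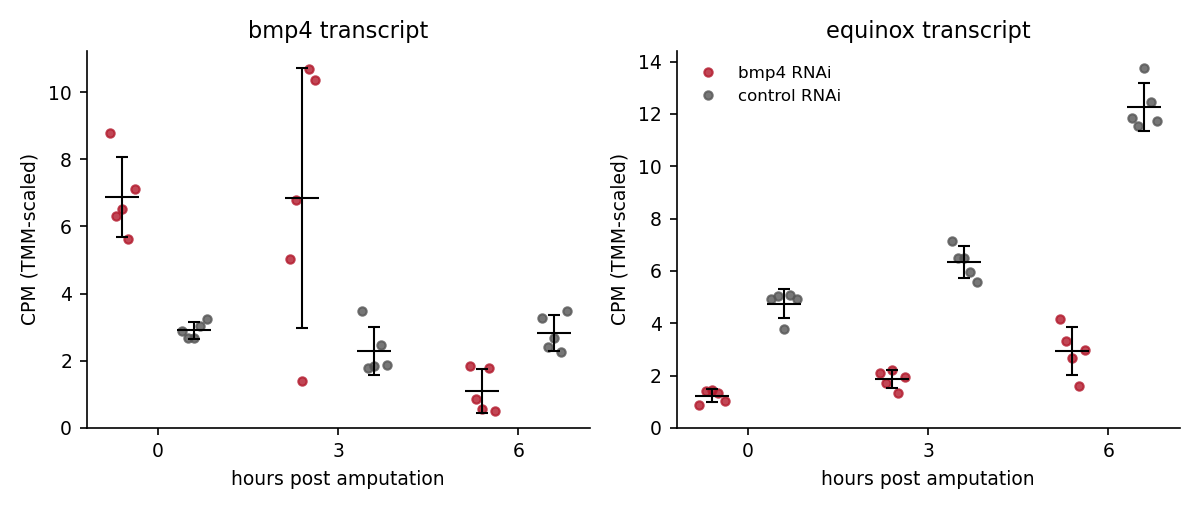
Levels of the bmp4 transcript (left) and of equinox (right) in CPM, one point per library, at 0, 3 and 6 hpa in libraries labelled bmp4 RNAi (red) and control RNAi (grey); horizontal lines are means and bars 1 SD (n = 5). At 6 hpa bmp4 was lower and equinox higher than at 0 hpa in the libraries labelled bmp4 RNAi, and equinox stayed far under its control level at all 3 times.

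The transcript of equinox (dd_Smed_v6_20318_0_1) was higher at 6 hpa than at 0 hpa but stayed at a low level. The first 120 bases of its open reading frame, shown because this wound epidermis gene is the one whose level under bmp4 RNAi the study turned to, were taken from the study's sequence collection, with the start codon in capitals.
equinox: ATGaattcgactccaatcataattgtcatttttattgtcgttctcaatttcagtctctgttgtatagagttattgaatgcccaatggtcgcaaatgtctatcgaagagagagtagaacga
At 6 hpa equinox measured 4.14, 3.32, 2.69, 1.6 and 2.97 CPM in libraries labelled bmp4 RNAi. At 0 hpa those libraries had 0.880, 1.43, 1.46, 1.34 and 1.03 CPM. The groups did not overlap, although replicate 4 at 6 hpa came close to the highest library at 0 hpa, and the log2 fold change was 1.28 (SE 0.18, edgeR adjusted p = 1.87e-07). At 3 hpa the level was intermediate, at 1.33 to 2.21 CPM, and both steps were called by edgeR (log2 fold change 0.66 from 0 to 3 hpa, edgeR adjusted p = 0.024, and 0.62 from 3 to 6 hpa, edgeR adjusted p = 0.0292). The groups at 3 and 6 hpa overlapped. The exact permutation test of the step from 3 to 6 hpa did not pass after adjustment over 10 tests (p = 0.0476, adjusted p = 0.0529). Control libraries had 11.5 to 13.8 CPM at 6 hpa and 3.76 to 5.08 CPM at 0 hpa. The libraries labelled bmp4 RNAi therefore held 24.0% of the control mean at 6 hpa and 25.8% at 0 hpa, and gained 1.72 CPM where control libraries gained 7.52 CPM. As a ratio, the rise was 2.43-fold in the libraries labelled bmp4 RNAi and 2.58-fold in control libraries, and the difference between the 2 log2 changes was -0.09 (95% interval -0.57 to 0.40, edgeR adjusted p = 0.97). The relative rise was thus not shown to differ, within the limits of that interval. The level was lower than in control libraries at both times, with log2 differences of -2.05 at 6 hpa and -1.96 at 0 hpa (edgeR adjusted p = 1.38e-17 and 5.65e-14).

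Across all transcripts, 1434 were called higher at 6 hpa than at 0 hpa in the libraries labelled bmp4 RNAi and 999 were called lower, which is 7.75% and 5.40% of those tested (edgeR adjusted p under 0.05). Most changes were modest. The median log2 fold change was 0.41 among the transcripts called higher and -0.35 among those called lower, and that over all transcripts was 0.0047. At least 2-fold changes were called for 165 transcripts that rose (0.891%) and 72 that fell (0.389%), and at least 4-fold changes for 42 and 8. The 5 libraries at 6 hpa lay wholly above those at 0 hpa for 888 transcripts (4.80%) and wholly below them for 655 (3.54%). Without replicate 3 at 6 hpa the counts were 1564 higher and 1116 lower. With only these 10 libraries in the fit the counts were 785 and 512.

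Among transcripts called with no overlap of the groups, no gene name was at hand for the 2 largest rises or for the second largest fall, which came after that of VIT (described with the matrix proteins). The transcript dd_Smed_v6_16222_0_1 measured 44.8, 37.7, 22.6, 37.2 and 44.3 CPM at 6 hpa in the libraries labelled bmp4 RNAi. It measured 0.396, 0.493, 0.233, 0.223 and 0.326 CPM at 0 hpa, so that it was nearly absent before the wound response and abundant 6 hours later. The log2 change of 6.75 (SE 0.279, edgeR adjusted p = 8.08e-26) was the largest rise called in this comparison. In control libraries the rise was 6.95, to 60.9 to 78.6 CPM at 6 hpa against 0.301 to 0.712 CPM at 0 hpa, and the 2 changes were not shown to differ (difference -0.19, 95% interval -1.34 to 0.95, edgeR adjusted p = 0.969). The transcript dd_Smed_v6_30377_0_1 was rare, with 0.307, 0.133, 0.424, 0.308 and 0.244 CPM at 6 hpa and no count in any of the 5 libraries at 0 hpa. Its 27 counts at 6 hpa made it at least 9.18-fold higher, with the floor at 0 hpa set at 3 counts for the whole group (edgeR adjusted p = 3.75e-05). Among the falls, dd_Smed_v6_65734_0_1 measured 0, 0.0663, 0.659, 0.185 and 0.146 CPM at 6 hpa and 1.5, 3.12, 1.28, 1.51 and 1.95 CPM at 0 hpa (log2 fold change -3.02, SE 0.619, edgeR adjusted p = 0.000504). Control libraries showed no called fall of that transcript, with 0 to 0.345 CPM at 6 hpa and 0 to 0.538 CPM at 0 hpa, and the difference between the changes was not called (-3.55, edgeR adjusted p = 0.306).

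For the rest, a gene name given in capitals is the best match among human proteins in the study's annotation, which covered 794 of the tested transcripts in the part at hand, 570 of them with a human match. It names a similar protein and not a proven counterpart, and the roles given are those known from human or other animals. Of these 570, 65 were called higher and 38 lower at 6 hpa in the libraries labelled bmp4 RNAi. Over all transcripts tested the shares were 7.75% and 5.40%. Groups did not overlap for 30 and 19 of those called, beside 766 and 509 called without overlap among all 18510 tested. The 14 largest rises and 10 largest falls among these 49 follow by role. The absence of overlap in them was a condition of their choice and not a result.

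Secreted and matrix proteins included some of the largest rises. The transcript matching COLEC10 (dd_Smed_v6_10_1_1), a collectin, which is a secreted lectin of innate immunity, measured 35.1, 50.8, 47.0, 54.5 and 37.2 CPM at 6 hpa. It measured 16.6, 10.4, 10.1, 9.54 and 3.26 CPM at 0 hpa, a log2 change of 2.15 (SE 0.552, edgeR adjusted p = 0.00481). COLEC10 varied more within groups than most of the named transcripts, and in control libraries it ranged from 28.4 to 223.5 CPM at 6 hpa and from 13.9 to 66.2 CPM at 0 hpa. The transcript matching ADAMTS20 (dd_Smed_v6_10259_0_1), a secreted metalloprotease that cuts matrix proteoglycans in mammals, measured 64.9, 63.1, 51.4, 63.7 and 64.3 CPM at 6 hpa. At 0 hpa ADAMTS20 measured 33.4, 32.8, 35.3, 29.4 and 29.4 CPM, a log2 change of 0.94 (SE 0.0840, edgeR adjusted p = 1.45e-13). The groups were far apart, and replicate 3 was the lowest library at 6 hpa. The transcript matching LMLN (dd_Smed_v6_10609_0_1), a metalloprotease of the leishmanolysin family, ranged from 5.18 to 6.90 CPM at 6 hpa and from 3.69 to 4.97 CPM at 0 hpa (log2 fold change 0.49, edgeR adjusted p = 0.00648). The transcript matching VIT (dd_Smed_v6_1071_0_1), vitrin, a matrix protein with von Willebrand factor A domains, had the largest fitted fall of the comparison, -5.05. That value rested on a single library. VIT measured 0.716, 0.863, 1.08, 0.740 and 0.828 CPM at 6 hpa and 4.31, 2.14, 2.10, 2.12 and 131.3 CPM at 0 hpa. Without replicate 5 at 0 hpa the log2 fold change was -1.67 and was not called (edgeR adjusted p = 0.449), and with only the 10 libraries in the fit it was not called either (edgeR adjusted p = 0.0648).

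A small heat shock protein and a folding enzyme rose. The transcript matching HSPB1 (dd_Smed_v6_1039_0_1), a small heat shock protein that keeps damaged proteins from clumping, measured 395.5, 355.7, 501.8, 328.2 and 330.5 CPM at 6 hpa. At 0 hpa HSPB1 measured 267.8, 170.9, 165.0, 178.1 and 163.1 CPM, a log2 change of 1.02 (SE 0.139, edgeR adjusted p = 1.68e-07). All libraries at 6 hpa were higher, and replicate 1 at 0 hpa stood above the other 4 of its group. The transcript matching PDIA6 (dd_Smed_v6_1058_0_1), a protein disulfide isomerase that helps secreted proteins fold in the endoplasmic reticulum, measured 159.3, 197.5, 133.9, 194.9 and 188.6 CPM at 6 hpa and 101.4, 129.9, 107.8, 90.4 and 108.4 CPM at 0 hpa. Its lowest library at 6 hpa, replicate 3, was only just above the highest at 0 hpa (log2 fold change 0.70, SE 0.0970, edgeR adjusted p = 1.36e-07).

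Signalling proteins moved in both directions. The transcript matching TRAF2 (dd_Smed_v6_10569_0_1), an adaptor that links receptors of the tumor necrosis factor family to kinases, measured 15.7, 15.7, 11.7, 12.3 and 11.1 CPM at 6 hpa. It measured 7.61, 7.95, 8.39, 6.14 and 5.37 CPM at 0 hpa (log2 fold change 0.90, SE 0.119, edgeR adjusted p = 3.82e-08). The transcript matching UNC5C (dd_Smed_v6_10730_0_1), a netrin receptor that guides axons and migrating cells, was tightly grouped, at 32.4, 30.7, 29.7, 28.1 and 30.6 CPM at 6 hpa and 20.5, 17.3, 18.5, 16.0 and 17.5 CPM at 0 hpa (log2 fold change 0.75, SE 0.0860, edgeR adjusted p = 5.27e-10). For both genes the libraries at 6 hpa lay wholly above those at 0 hpa. The transcript matching PDE8A (dd_Smed_v6_10593_0_1), a phosphodiesterase that breaks down cyclic AMP, ranged from 38.5 to 47.8 CPM at 6 hpa and from 28.7 to 34.6 CPM at 0 hpa (log2 fold change 0.47, edgeR adjusted p = 3.17e-05).

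Best matches to the Notch pathway, by which neighbouring cells signal to each other, were a receptor, a ligand and an enzyme that acts on ligands. The transcript matching NOTCH1 (dd_Smed_v6_10716_0_1), for which the annotation lists EGF repeats, measured 20.5, 20.3, 23.0, 18.6 and 20.4 CPM at 6 hpa and 15.8, 14, 13.5, 13.8 and 14.6 CPM at 0 hpa, a rise of 0.52 on the log2 scale (SE 0.0851, edgeR adjusted p = 5.60e-06). The transcript matching JAG1 (dd_Smed_v6_10221_0_1), a Notch ligand with the DSL domain that binds the receptor, measured 10.6, 9.89, 11.8, 13.3 and 12.5 CPM at 6 hpa and 16.5, 17.9, 18.0, 16.3 and 16.2 CPM at 0 hpa, with a log2 change of -0.55 (SE 0.102, edgeR adjusted p = 6.27e-05). The transcript matching MIB2 (dd_Smed_v6_10104_0_1), a ubiquitin ligase that acts on Notch ligands, measured 2.35, 1.73, 1.32, 1.23 and 1.85 CPM at 6 hpa and 3.74, 3.56, 3.56, 3.29 and 5.16 CPM at 0 hpa, with a log2 change of -1.18 (SE 0.220, edgeR adjusted p = 6.11e-05). The transcript matching the receptor rose while those matching the ligand and the ubiquitin ligase fell. For the NOTCH1 match the annotation lists EGF-type repeats and no Notch-specific domain, so its place in the pathway is uncertain. For the MIB2 match it lists RING-type zinc fingers and no domain specific to the pathway, so its place is uncertain too. The transcript matching BRAF (dd_Smed_v6_10148_0_1), a kinase at the top of the ERK pathway, measured 22.3, 25.4, 21.7, 23.1 and 22.9 CPM at 6 hpa and 30.3, 32.9, 31.7, 32.2 and 33.2 CPM at 0 hpa (log2 fold change -0.48, SE 0.0651, edgeR adjusted p = 8.94e-08).

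Channels, transporters and nuclear proteins made up most of the other rises. The transcript matching KCNQ1 (dd_Smed_v6_10387_0_1), a voltage-gated potassium channel, measured 34.7, 39.4, 29.5, 41.2 and 42.6 CPM at 6 hpa and 24.0, 23.7, 23.2, 20.2 and 25.6 CPM at 0 hpa (log2 fold change 0.68, SE 0.0790, edgeR adjusted p = 8.03e-10). The transcript matching SLC26A5 (dd_Smed_v6_10602_0_1), of the family of sulfate and anion transporters, measured 15.7, 13.1, 12.9, 9.92 and 11.4 CPM at 6 hpa and 5.19, 4.99, 5.42, 9.77 and 5.54 CPM at 0 hpa (log2 fold change 1.03, SE 0.214, edgeR adjusted p = 0.000376). The groups of SLC26A5 were kept apart by a small margin only, since replicate 4 was the lowest library at 6 hpa and the replicate 4 of 0 hpa the highest of its group. The transcript matching GTF2IRD2B (dd_Smed_v6_10215_0_1), a relative of a general transcription factor, measured 22.9, 20.6, 18.3, 21.2 and 26.9 CPM at 6 hpa and 10.1, 10.6, 9.73, 9.77 and 10.5 CPM at 0 hpa (log2 fold change 1.12, SE 0.153, edgeR adjusted p = 1.39e-07). The transcript matching NUP35 (dd_Smed_v6_10329_0_1), a part of the nuclear pore, ranged from 10.2 to 12.3 CPM at 6 hpa and from 6.42 to 8.80 CPM at 0 hpa (log2 fold change 0.59, edgeR adjusted p = 0.000126). The transcript matching LRFN5 (dd_Smed_v6_10393_0_1), a synaptic adhesion protein, ranged from 18.6 to 24.5 CPM at 6 hpa and from 12.3 to 16.1 CPM at 0 hpa (log2 fold change 0.51, edgeR adjusted p = 1.76e-05).

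The remaining named falls were small, and in each the libraries at 6 hpa lay wholly below those at 0 hpa, as the choice required. The transcript matching FOXRED1 (dd_Smed_v6_10791_0_1), an assembly factor of mitochondrial respiratory complex I, measured 18.8, 15.5, 14.7, 15.7 and 15.7 CPM at 6 hpa and 20.3, 24.3, 21.0, 24.0 and 24.3 CPM at 0 hpa (log2 fold change -0.50, SE 0.138, edgeR adjusted p = 0.00834). The transcript matching MGLL (dd_Smed_v6_10155_0_1), a lipase that breaks down monoglycerides, ranged from 12.3 to 14.9 CPM at 6 hpa and from 15.9 to 22.4 CPM at 0 hpa (log2 fold change -0.51, edgeR adjusted p = 0.000374). The transcript matching CDK9 (dd_Smed_v6_10816_0_1), a kinase that releases paused RNA polymerase II, ranged from 8.34 to 10.7 CPM at 6 hpa and from 11.5 to 12.2 CPM at 0 hpa (log2 fold change -0.33, edgeR adjusted p = 0.0102). Those matching ANKRD63, FAM47E and LRRC74A (dd_Smed_v6_10280_0_1, dd_Smed_v6_10346_0_1 and dd_Smed_v6_10342_0_1), whose roles are little known, had log2 fold changes of -0.48, -0.41 and -0.33 (edgeR adjusted p = 9.66e-05, 0.00655 and 0.0134).

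**Figure D2:**
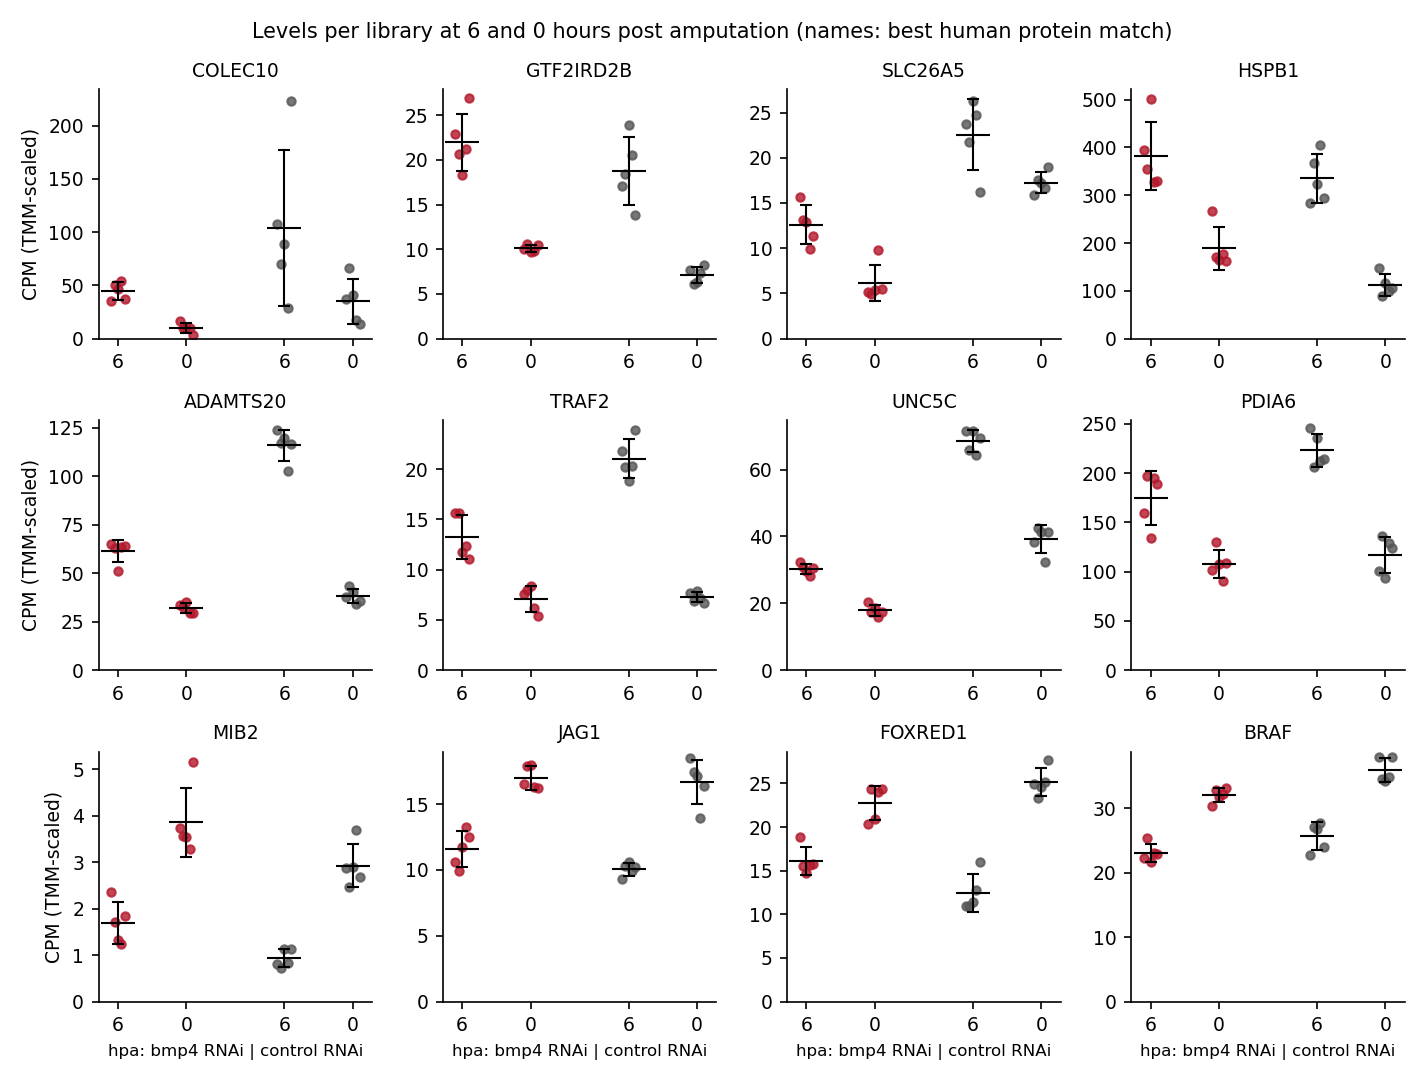
Levels in CPM per library of 8 named transcripts that rose and 4 that fell, at 6 and 0 hpa in libraries labelled bmp4 RNAi (red, left in each panel) and control RNAi (grey, right); lines are means and bars 1 SD (n = 5), and each axis starts at 0. All 12 were chosen among transcripts whose libraries at 6 and 0 hpa do not overlap in the red pairs.

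Annotated transcripts were also grouped into 13 lists by function, with 176 members in all, and read against the 7.75% called higher and 5.40% called lower over all transcripts. In ribosome assembly 5 of 22 tested members rose and 0 fell (median log2 fold change 0.14, with 16 of 22 above 0). The members called were those matching NOL10 (dd_Smed_v6_10561_0_1), POP1, WDR46, NLE1 and 1 of 2 transcripts matching MTREX, factors that process ribosomal or other non-coding RNA, with log2 fold changes of 0.42, 0.38, 0.26, 0.26 and 0.20. These were small rises. NOL10 measured 18.0, 23.0, 14.5, 20.2 and 21.0 CPM at 6 hpa against 14.5, 15.6, 15.3, 11.2 and 15.5 CPM at 0 hpa, and replicate 3 at 6 hpa overlapped the earlier group. The count was not stable, being 0 with only the 10 libraries in the fit, 1 without replicate 2 at 6 hpa, 3 without replicate 4 or replicate 5 at 6 hpa or without replicate 1 or replicate 4 at 0 hpa, and 6 without replicate 3 at 6 hpa. In protein folding 3 of 12 members rose and 0 fell (median 0.20), namely HSPB1, PDIA6 and the tubulin folding cofactor TBCD, which measured 35.7 to 46.7 CPM at 6 hpa and 28.7 to 33.4 CPM at 0 hpa (log2 fold change 0.35, edgeR adjusted p = 9.82e-05). In translation 0 of 10 members were called in either direction by edgeR or DESeq2 (median -0.015), and 1 rise and 2 falls had an unadjusted p under 0.05.

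The matrix list had 2 of 12 members that rose and 1 that fell (median -0.036). Beside ADAMTS20 the second rise was that of the transcript matching HSPG2 (dd_Smed_v6_1054_0_1), perlecan, a proteoglycan of basement membranes. HSPG2 measured 890.2, 1072, 781.0, 1110 and 1111 CPM at 6 hpa and 784.8, 705.3, 702.5, 539.2 and 588.5 CPM at 0 hpa (log2 fold change 0.58, SE 0.0924, edgeR adjusted p = 3.20e-06). It was the most abundant of the transcripts given by library here, and replicate 3 at 6 hpa fell just inside the range at 0 hpa. The 1 fall was VIT, which was lost without replicate 5 at 0 hpa. Of 6 muscle genes 2 rose and 1 fell (median -0.14). The transcript matching CAV3 (dd_Smed_v6_10578_0_1), caveolin of muscle membranes, measured 2.10, 2.46, 0.754, 1.79 and 1.71 CPM at 6 hpa and 0.440, 0.548, 0.525, 0.726 and 0.760 CPM at 0 hpa (log2 fold change 1.53, SE 0.234, edgeR adjusted p = 1.30e-06). Its groups overlapped by the single library of replicate 3 at 6 hpa. The transcript matching ATP2A2 (dd_Smed_v6_1006_0_1), the calcium pump of the sarcoplasmic reticulum, ranged from 377 to 548.9 CPM at 6 hpa and from 298.5 to 377.9 CPM at 0 hpa (log2 fold change 0.49, edgeR adjusted p = 1.80e-06). The transcript matching LDB3, a protein of the muscle Z-disc, fell, with a log2 change of -0.43 (edgeR adjusted p = 0.00243), and the other 3 had log2 fold changes of -0.46 to -0.065 without passing the test.

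In the signalling list 1 of 14 members rose (NOTCH1) and 3 fell (MIB2, JAG1 and BRAF), with a median log2 fold change of -0.047. In the list of TRAF and cell death genes 2 of 13 rose and 0 fell (median 0.13). Beside TRAF2 this was the transcript matching BIRC3, an inhibitor of apoptosis, with 5.55 to 8.74 CPM at 6 hpa and 4.05 to 6.91 CPM at 0 hpa (log2 fold change 0.48, edgeR adjusted p = 0.0119), and only TRAF2 remained called when replicate 1 at 6 hpa or replicate 1 at 0 hpa was left out. Of 16 transcription factors 0 were called in either direction by edgeR or DESeq2 (median -0.11, range -0.76 to 0.12). No rise and 6 falls had an unadjusted p under 0.05, and leaving out replicate 3 at 6 hpa gave 2 falls and leaving out replicate 1 at 0 hpa gave 1. In DNA replication, repair and division 2 of 13 rose and 1 fell (median 0.12). The transcript matching WDHD1 (dd_Smed_v6_10217_0_1), a factor of the replication fork, measured 34.7, 39.8, 23.7, 40.7 and 40.5 CPM at 6 hpa and 19.8, 23.7, 17.6, 14.3 and 21.0 CPM at 0 hpa, with replicate 3 at 6 hpa reaching down to the highest library at 0 hpa (log2 fold change 0.89, SE 0.144, edgeR adjusted p = 5.45e-06). The DNA repair glycosylase TDG rose by 0.33 and the repair nuclease ERCC5 fell by 0.37 on the log2 scale (edgeR adjusted p = 0.000213 and 0.0116). The fall of ERCC5 was not called without replicate 4 of either group.

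Of 20 neuronal genes 3 rose and 0 fell (median 0.093), namely KCNQ1, LRFN5 and the glycine transporter SLC6A5 (log2 fold change 0.22, edgeR adjusted p = 0.0322). Of 23 cilium genes 0 rose and 1 fell (median -0.0053), the kinase NEK8 of the base of the cilium, with a log2 change of -0.21 (edgeR adjusted p = 0.0217). The number of cilium genes called lower was 0 without replicate 1 at 6 hpa or without replicate 5 at 0 hpa, and 2 without replicate 3 at 6 hpa or without replicate 2 at 0 hpa. Where the edgeR count of a list was 0 in a single direction, 1 fall in ribosome assembly and 1 in the neuronal list had an unadjusted p under 0.05, as did 0 falls in protein folding, 0 falls among TRAF and cell death genes and 0 rises among cilium genes. DESeq2 called 1 of these, a fall in ribosome assembly. Of 6 nuclear genes of respiration 0 were called by edgeR or DESeq2 and 0 had an unadjusted p under 0.05. Of 8 mitochondrial transcripts 0 were called by edgeR and 1 rose by DESeq2, and 2 had an unadjusted p under 0.05. The medians of these 2 lists were -0.0036 and 0.40, and the mitochondrial transcripts were widely spread at 6 hpa through replicate 5, in which the transcript dd_Smed_v6_344_0_1, reached 634.5 CPM against 43.1 to 113.7 CPM in the other 4.

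**Figure D3:**
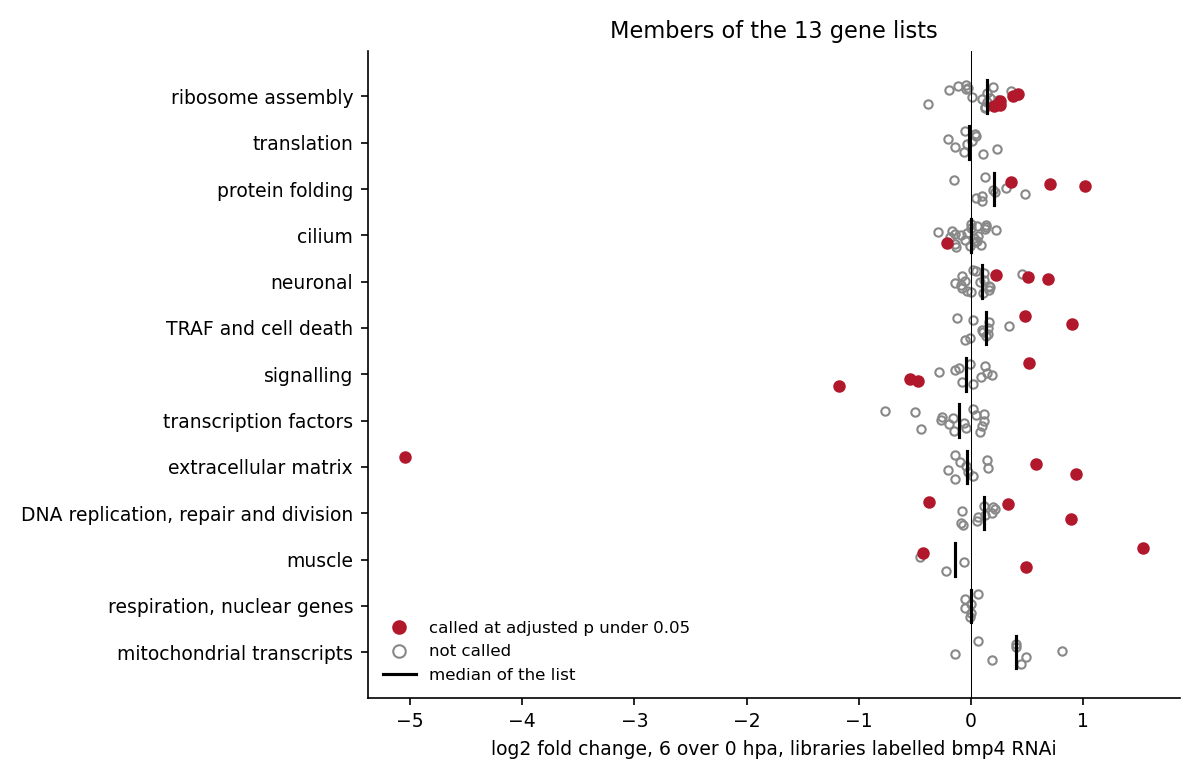
Log2 fold change from 0 to 6 hpa of each tested member of the 13 lists in the libraries labelled bmp4 RNAi; filled red points passed an edgeR adjusted p under 0.05, open points did not, and black bars are list medians. Medians lie between -0.14 and 0.40, and the point at -5.05 is VIT, whose value rests on 1 library.

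The libraries at 3 hpa show when within the 6 hours these levels were reached. From 3 to 6 hpa 456 transcripts were called higher (2.46%) and 396 lower (2.14%) under the bmp4 RNAi label, which is 4.60% in all, and from 0 to 3 hpa 1105 higher (5.97%) and 844 lower (4.56%). These comparisons share libraries with that of 6 against 0 hpa. The split of the calls from 3 to 6 hpa depended on scaling, with 291 higher and 682 lower when libraries were scaled by their totals alone. The number called lower was 262 without replicate 1 at 6 hpa, 246 without replicate 1 at 3 hpa and 244 without replicate 4 at 3 hpa, the shallowest library. Some named transcripts rose mainly between 3 and 6 hpa. ADAMTS20 changed by 0.04 from 0 to 3 hpa (edgeR adjusted p = 0.842) and by 0.90 from 3 to 6 hpa (edgeR adjusted p = 1.40e-11), and it measured 30.2 to 36.5 CPM at 3 hpa. GTF2IRD2B changed by 0.0073 and then by 1.11 (edgeR adjusted p = 0.987 and 2.46e-06), and CAV3 by 0.13 and then by 1.40 (edgeR adjusted p = 0.837 and 0.000103). PDE8A followed the same order, with 0.07 and then 0.40 (edgeR adjusted p = 0.677 and 0.00164).

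Other named transcripts were called higher by 3 hpa and showed no called change from 3 to 6 hpa, which does not show that the 2 levels were equal. TRAF2 measured 13.3 to 19.5 CPM at 3 hpa and changed by 1.15 from 0 to 3 hpa and by -0.24 from 3 to 6 hpa (edgeR adjusted p = 8.82e-11 and 0.244). UNC5C rose by 0.78 to 3 hpa, KCNQ1 by 0.71, LRFN5 by 0.68 and NOTCH1 by 0.50 (edgeR adjusted p = 5.21e-10, 7.62e-10, 6.15e-08 and 3.04e-05), and the later steps of these 4 lay between -0.17 and 0.02 and were not called. Beside equinox, transcripts called higher in both steps by edgeR included dd_Smed_v6_16222_0_1, with 5.25 and then 1.51 (edgeR adjusted p = 9.42e-20 and 4.08e-08), and PDIA6, with 0.30 and then 0.40 (edgeR adjusted p = 0.0333 and 0.00749). FOXRED1 stood at 25 to 41.0 CPM at 3 hpa and fell by 0.88 on the log2 scale from 3 to 6 hpa (edgeR adjusted p = 1.58e-05), while its change from 0 to 3 hpa of 0.38 was not called (edgeR adjusted p = 0.0635). The bmp4 transcript was likewise lower at 6 hpa than at 3 hpa, with a log2 change of -2.60 (edgeR adjusted p = 0.00522), although its libraries at 3 hpa were widely spread.

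Control libraries showed how the same transcripts responded with the control RNA. Of the 298 transcripts that rose at least 2-fold from 0 to 6 hpa in control libraries, 217 (72.8%) were also called higher in the libraries labelled bmp4 RNAi, beside 7.75% of all transcripts. A positive log2 fold change was found for 287 of them, and for 179 the 5 libraries at 6 hpa lay wholly above those at 0 hpa, beside 4.80% of all transcripts. The median log2 fold change of the 298 was 1.0 in the libraries labelled bmp4 RNAi and 1.41 in control libraries. Since the list was chosen on the control libraries, its control values are raised by that choice, and no test was made over the list. Of the 220 transcripts that fell at least 2-fold in control libraries, 81 (36.8%) were called lower in the libraries labelled bmp4 RNAi, beside 5.40% of all transcripts, and 208 had a negative value. Their median was -0.64 in the libraries labelled bmp4 RNAi and -1.29 in control libraries. In the opposite direction edgeR called 0 members of either list, and 0 had an unadjusted p under 0.05. Without replicate 3 at 6 hpa the 2 counts were 221 and 81.

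The lists were also read the other way. Of the 165 transcripts induced at least 2-fold under the bmp4 RNAi label, 140 were called higher in control libraries, beside 12.5% of all transcripts. Their median was 1.43 in the libraries labelled bmp4 RNAi, on which they were chosen, and 1.62 in control libraries. Of the 72 that fell at least 2-fold, 45 were called lower in control libraries, beside 12.7% of all transcripts. Their medians were -1.31 and -1.19 in the same order. The lists of transcripts induced at least 2-fold shared 133 transcripts, 80.6% of the list of the libraries labelled bmp4 RNAi and 44.6% of the control list. The lists of reduced transcripts shared 38, which is 52.8% and 17.3%. Across the 18510 transcripts, which are not independent replicates, the log2 fold changes in the 2 conditions had a Pearson's r of 0.615 and a Spearman's rho of 0.58.

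**Figure D4:**
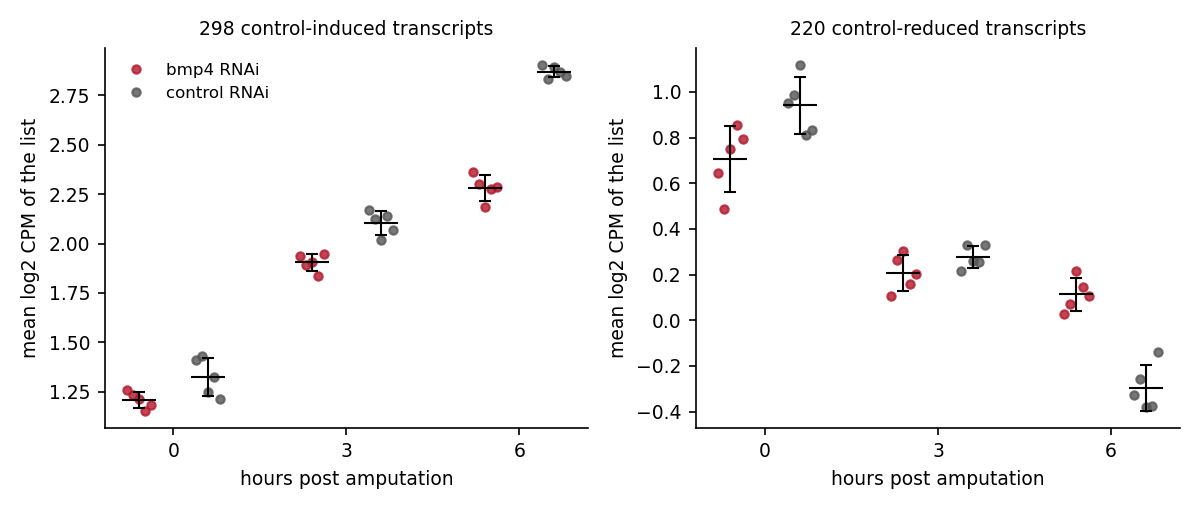
Mean log2 CPM, one point per library, over the 298 transcripts induced (left) and the 220 reduced (right) at least 2-fold from 0 to 6 hpa in control libraries, at 0, 3 and 6 hpa in libraries labelled bmp4 RNAi (red) and control RNAi (grey); lines are means and bars 1 SD (n = 5), and the axes do not start at 0. The red points of the induced list lie at 2.18 to 2.36 at 6 hpa and 1.16 to 1.26 at 0 hpa, and the lists were chosen on the grey points at 6 and 0 hpa.

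The mean level over the 298 control-induced transcripts was 2.28 ± 0.0646 log2 CPM at 6 hpa and 1.21 ± 0.0404 at 0 hpa in the libraries labelled bmp4 RNAi (SD, n = 5 each), with no overlap, and stood at 1.9 ± 0.0441 at 3 hpa. In control libraries it was 2.87 ± 0.0289 at 6 hpa and 1.32 ± 0.0952 at 0 hpa. The libraries labelled bmp4 RNAi lay below control libraries by 0.59 at 6 hpa, without overlap, and by 0.12 at 0 hpa, with overlap. Since the transcripts were chosen for a large control rise to 6 hpa, that choice widens the gap at 6 hpa, which was not tested. Over the 220 control-reduced transcripts the mean level was 0.114 ± 0.0721 at 6 hpa and 0.707 ± 0.145 at 0 hpa in the libraries labelled bmp4 RNAi. The corresponding control values were -0.296 ± 0.100 at 6 hpa and 0.941 ± 0.124 at 0 hpa. These control values are likewise affected by the choice of the list. In this list most of the fall in the libraries labelled bmp4 RNAi was present at 3 hpa, at 0.207 ± 0.0788, and the groups at 6 and 3 hpa overlapped.

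A call in one condition and not in the other does not show a difference, so the difference between the 2 changes to 6 hpa was tested for each transcript. It was called for 58 transcripts, 0.313% of those tested, 39 of them below 0 and 19 above 0 (0.211% and 0.103%, edgeR adjusted p under 0.05), while 1628 had an unadjusted p under 0.05 and DESeq2 called 115. Of the 39 below 0, 36 had the same sign in both conditions and a smaller rise in the libraries labelled bmp4 RNAi. On the list of 298 were 24 of the 39. Of the 19 above 0, 14 had a smaller fall, and 6 were on the list of 220. These lists held 298 and 220 of the 18510 transcripts tested. The control libraries at 6 and 0 hpa that chose them also enter the tested difference. Smaller changes under the bmp4 RNAi label and overlap with the lists are therefore favoured by the choice. The median difference was -0.46 among the 39 and 0.52 among the 19, and 8 of the 58 reached 2-fold. The count was sensitive to single libraries. It was 24 and 26 without replicate 4 at 6 hpa or replicate 2 at 0 hpa of the libraries labelled bmp4 RNAi, and 34 without their replicate 3 at 0 hpa. It was 25, 29, 28 and 35 without replicates 1, 3, 4 and 5 of the control libraries at 6 hpa, and 25, 29 and 31 without replicates 1, 2 and 3 of those at 0 hpa.

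Among annotated transcripts the difference was called for 4. ADAMTS20 rose by 0.94 in the libraries labelled bmp4 RNAi and by 1.6 in control libraries, where it measured 102.5 to 123.8 CPM at 6 hpa and 34.2 to 43.3 CPM at 0 hpa. The difference was -0.66 (95% interval -0.90 to -0.42, edgeR adjusted p = 0.00182) and stayed called in each of the 20 fits that left out 1 library, with an edgeR adjusted p of at most 0.00613. NOTCH1 rose by 0.52 in the libraries labelled bmp4 RNAi and by 1.03 in control libraries, with a difference of -0.51 (edgeR adjusted p = 0.04) that was lost in 13 of those 20 fits. The transcript matching ABCA1 (dd_Smed_v6_10304_0_1), a pump that exports cholesterol from cells, measured 26.6, 22.9, 26.4, 24.2 and 18.3 CPM at 6 hpa and 18.1, 20.6, 17.8, 21.8 and 20.5 CPM at 0 hpa in the libraries labelled bmp4 RNAi. Its log2 fold change was 0.26 there (edgeR adjusted p = 0.0298) and -0.26 in control libraries (edgeR adjusted p = 0.0134), where it stood higher at both times, at 30.3 to 37.6 CPM at 6 hpa and 34.5 to 44.4 CPM at 0 hpa. The difference was 0.52 (edgeR adjusted p = 0.0334) and was lost in 12 of the 20 fits, and the rise in the libraries labelled bmp4 RNAi was itself not called in 5 of its 10 fits without 1 library. The transcript matching FTH1 (dd_Smed_v6_1033_0_1), the heavy chain of the iron store ferritin, had a log2 change of -0.07 under the bmp4 RNAi label and of -0.58 under control RNA (edgeR adjusted p = 0.681 and 4.65e-07). Its difference of 0.51 (edgeR adjusted p = 0.0493) was lost in 17 of the 20 fits.

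**Figure D5:**
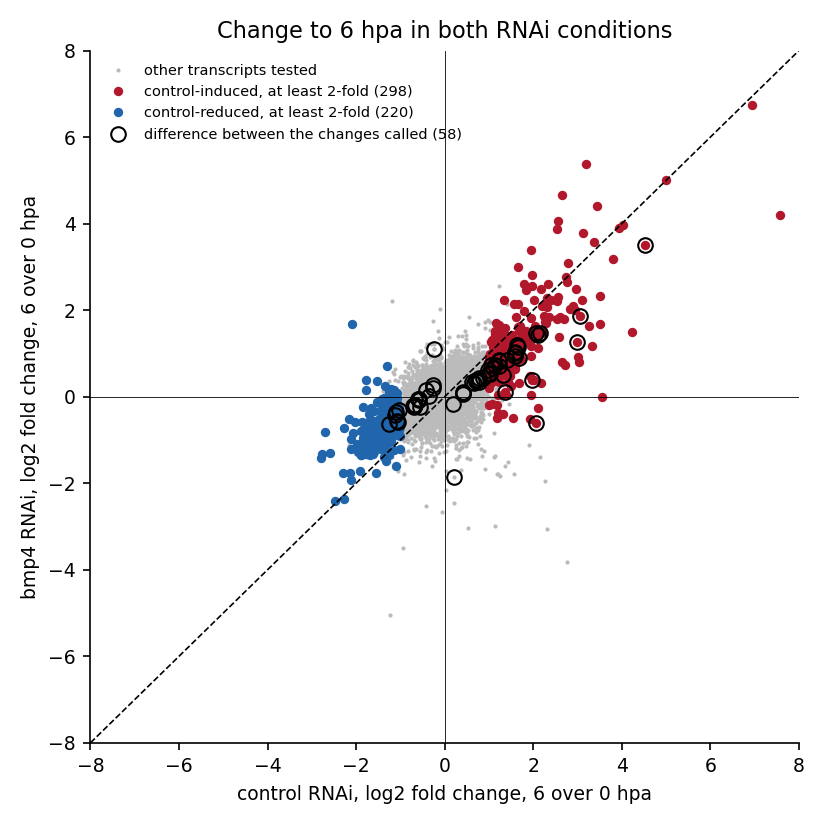
Log2 fold change from 0 to 6 hpa of each of the 18510 transcripts tested, in libraries labelled bmp4 RNAi (y axis) and control RNAi (x axis); red and blue points rose or fell at least 2-fold in control libraries, rings mark the 58 transcripts with a called difference between the changes, and the dashed line marks equal changes. Most red points lie above 0 and under the dashed line, and 36 of the ringed transcripts had a smaller rise of the same sign in the libraries labelled bmp4 RNAi. The red and blue points were chosen on their control values, which favours a place nearer 0 on the y axis than on the x axis.

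For the other named transcripts the difference between the changes was not called. The 6 annotated transcripts with the largest control rise were ADAMTS20, HSPB1, COLEC10, TRAF2, GTF2IRD2B and CAV3, and all 6 were called higher in the libraries labelled bmp4 RNAi as well. HSPB1 rose 2.02-fold in the libraries labelled bmp4 RNAi and 3.00-fold in control libraries, where it measured 283.3 to 405.5 CPM at 6 hpa and 89.6 to 148.0 CPM at 0 hpa (difference -0.57, edgeR adjusted p = 0.267). At 0 hpa HSPB1 of libraries labelled bmp4 RNAi exceeded that of control libraries by 0.76 on the log2 scale (edgeR adjusted p = 5.37e-05). TRAF2 rose 1.87-fold in the libraries labelled bmp4 RNAi and 2.89-fold in control libraries (difference -0.63, edgeR adjusted p = 0.0818), a difference that did pass with DESeq2 (adjusted p = 0.0344). It also passed by edgeR without replicate 2 at 6 hpa, or without replicate 5 at 0 hpa, of the libraries labelled bmp4 RNAi. CAV3 stood under its control level at both times in libraries labelled bmp4 RNAi, at 39.6% of the control mean at 6 hpa and 30.0% at 0 hpa, and rose 2.89-fold there and 2.21-fold in control libraries (difference 0.38, 95% interval -0.21 to 0.98, edgeR adjusted p = 0.798). UNC5C showed the same arrangement, at 44.2% of the control mean at 6 hpa and 45.8% at 0 hpa, with a difference between the changes of -0.05 (95% interval -0.29 to 0.19, edgeR adjusted p = 0.96). KCNQ1 and BRAF had nearly the same levels and changes in both conditions, with differences of 0.0082 and 0.0052 and 95% intervals of -0.22 to 0.23 and -0.18 to 0.19 (edgeR adjusted p = 0.996 and 0.998).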

How the data were processed

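Polyadenylated RNA of wound tissue was sequenced, and the authors deposited raw read counts per transcript for 60 libraries. Per the study's methods, reads of 50 bases were mapped with bowtie to the dd_Smed_v6 transcriptome, reads on each contig were counted with coverageBed, and contigs of the same isotig group were summed. The submitters' processing notes list CASAVA 1.9, cutadapt 1.8, Bowtie 1.2, SAMtools 1.6 and DESeq. Whether counting used strand, and how reads with several equal matches were counted, is not stated in the labels or methods read here, so transcripts with near-identical copies or antisense partners are uncertain. No genome was used and no positions are given.

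Groups were taken from the labels. edgeR 4.0.16 and limma 3.58.1 were run in R 4.3.3. A filter (filterByExpr) over 12 groups (minimum count 10, minimum total 15) left 18510 transcripts with 99.91% of the counts. Libraries were scaled with TMM (trimmed mean of M-values) factors. All 60 libraries entered a robust quasi-likelihood fit with a mean per group, in which the biological coefficient of variation was 12.5%. Two-sided p-values were adjusted with the Benjamini-Hochberg method over all transcripts within each contrast, and the threshold was 0.05. Mean levels over a list used log2 CPM with a prior count of 2. For bmp4 and equinox log2(CPM + 1) was also compared over all 252 splits of 5 and 5 libraries. Alternatives were DESeq2 1.42.0, edgeR with DESeq-type (RLE) factors, library totals alone, no filter, only the libraries compared, an added 2-fold threshold, the replicate number as a block, a covariate for the leading within-group component, and leaving out each library in turn.

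The named transcripts were bmp4 and equinox, by the IDs in the study's text. To these came the 2 largest rises and 2 largest falls of all transcripts, and the 14 largest rises and 10 largest falls with a human match, among those called with no overlap between the 5 and 5 libraries. Every annotated transcript with a called difference between the changes, and the 6 annotated transcripts with the largest control rise, completed the set of 32. Of list members, examples had the largest changes among those called, and others were named after their values were seen. The annotation columns at hand covered 1200 transcripts at the start of the ID order. Members and lists were chosen with earlier results of these data known. A limit set from a count of 0 covers only the counting error.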

Additional observations from a re-analysis of the deposited data

Results flagged for a closer look

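The levels of the named transcripts and 5 library measures were examined at 6 and 0 hpa in both RNAi conditions, 148 groups of 5 libraries in all, for a library that stood apart from the other 4 of its group (Dixon's ratio above 0.71). There were 11 such cases, where chance gives about 1 in 20 groups. In libraries labelled bmp4 RNAi, at 6 hpa replicate 3 was the highest for dd_Smed_v6_65734_0_1, at 0.659 CPM against 0 to 0.185 CPM in the others, and the lowest for ADAMTS20, at 51.4 CPM against 63.1 to 64.9 CPM. At 6 hpa replicate 1 was the highest for FOXRED1, at 18.8 CPM against 14.7 to 15.7 CPM. At 0 hpa replicate 5 was the highest for VIT, at 131.3 CPM against 2.10 to 4.31 CPM, and for MIB2, at 5.16 CPM against 3.29 to 3.74 CPM. Replicate 4 at 0 hpa was the highest for SLC26A5, at 9.77 CPM against 4.99 to 5.54 CPM, and for FAM47E, at 29.0 CPM against 25.2 to 26.2 CPM. Replicate 1 at 0 hpa was the highest for HSPB1, at 267.8 CPM against 163.1 to 178.1 CPM. Of these 8 cases, VIT was the 1 whose change from 0 to 6 hpa was no longer called when that library was left out. In control libraries at 0 hpa, replicate 3 was the lowest for equinox, at 3.76 CPM against 4.93 to 5.08 CPM in the others. Replicate 4 was the highest for dd_Smed_v6_65734_0_1, at 0.538 CPM against 0 to 0.0579 CPM, and the lowest for FAM47E, at 16.1 CPM against 17.9 to 18.3 CPM.

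The difference between the changes from 0 to 6 hpa in libraries labelled bmp4 RNAi and in control libraries was called for 4 annotated transcripts, and only that of ADAMTS20 stayed called in all 20 fits without 1 library and in the fit of the compared libraries alone. The difference in log2 fold change was -0.66 for ADAMTS20 (edgeR adjusted p = 0.00182), -0.51 for NOTCH1 (edgeR adjusted p = 0.04), 0.52 for ABCA1 (edgeR adjusted p = 0.0334) and 0.51 for FTH1 (edgeR adjusted p = 0.0493). The calls of NOTCH1, ABCA1 and FTH1 were lost in 13, 12 and 17 of the 20 fits, and all 3 were lost with the compared libraries alone (edgeR adjusted p = 0.0958, 0.152 and 0.162).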

How the results depend on the processing

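No result changed direction past its threshold under any alternative. When the fit held the compared libraries alone, the counts from 0 to 6 hpa were 785 higher and 512 lower (1434 and 999 with all 60), those from 3 to 6 hpa 129 and 104 (456 and 396), and the difference between the changes was called for 16 (58). An added 2-fold threshold left 165 and 72, then 45 and 34, then 8, and of the control-induced and control-reduced transcripts 133 and 38 (217 and 81). With the leading within-group component as a covariate there were 1688 lower from 0 to 6 hpa, 1143 higher and 1089 lower from 3 to 6 hpa, and 271 differences. Library totals alone gave 291 and 682 from 3 to 6 hpa, no filter gave 255 lower there and 23 differences, and DESeq2 gave 115 differences. The cause of these shifts was not tested. The fit of the compared libraries alone had fewer samples, its own filter and its own estimate of spread, and these were not separated. Leaving out 1 library gave 1220 to 1564 higher and 745 to 1116 lower from 0 to 6 hpa, 325 to 664 higher and 244 to 483 lower from 3 to 6 hpa, and 24 to 73 differences. It gave 208 to 228 control-induced and 65 to 88 control-reduced transcripts called, -2.94 to -2.45 for bmp4 and 1.12 to 1.43 for equinox. The labels share replicate numbers between groups, but the deviations of same-numbered libraries at 6 and 0 hpa had correlations of -0.358 to 0.169, 0 of 5 libraries at 6 hpa correlated best with their own number, and the numbers were not treated as pairs. With the replicate number as a block the counts were 1392 and 968, 437 and 373, 44 differences, and 217 and 78, and the log2 fold changes were -2.66 for bmp4 and 1.28 for equinox. The differences of NOTCH1 and FTH1 were then not called (edgeR adjusted p = 0.0529 and 0.0636).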
